A study of Caenorhabditis elegans with 48 samples.

Results

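The regions described here are the stretches of the C. elegans genome in which nearly every library of a ChIP-seq study of the Rb/E2F pathway had a peak. Overlapping peaks (1 bp or more) of all 23 deposited peak lists were merged into 24318 regions, and the 780 regions that hold a peak of at least 18 of the 23 libraries were kept. They made up 3.21% of all merged regions. They are called broadly bound regions below, and the study's own class of broadly bound sites was not used to choose them. The regions were thus chosen by the measured presence of peaks, so how many of them each library or chromosome holds is a description and carries no test.

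Each library came from a worm strain that carries an integrated transgene for 1 protein fused to GFP and FLAG, with unc-119(+) as the marker in an unc-119(ed3) background, and chromatin was precipitated with an antibody to GFP from whole animals. The germline group is young adults in which the pie-1 promoter drives EFL-1 (YL445), DPL-1 (YL390) or LIN-35 (YL402), or the mex-5 promoter drives LIN-35 (YL468), with 2 libraries a strain. The somatic group is fed L1 larvae in which the factor's own promoter drives EFL-1 (YL424), DPL-1 (YL425) or LIN-35 (YL409), with 2 libraries a strain. These promoters do not restrict expression to the soma, and at this stage a larva holds few germ cells. The intestinal group is fed L1 larvae in which the gut promoter ges-1 drives EFL-1 (YL418), DPL-1 (YL448) or LIN-35 (YL398), with 2 libraries each, or HPL-2 (YL416), with 3 libraries that carry the same date in the labels. Each strain is 1 transgenic line, and tissue, stage and promoter change together between the germline and L1 groups and cannot be told apart. A library with less signal can hold fewer bound cells or less binding per cell, which these lists do not separate.

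EFL-1 is a worm E2F transcription factor, DPL-1 is its DP partner, and LIN-35 is the only Rb-like pocket protein of the worm. Together with the other proteins of the DRM complex they bind promoters, where the pocket protein is known to repress cell cycle genes and, in somatic cells, germline genes. HPL-2 is a heterochromatin protein of the HP1 family. All 4 proteins belong to the SynMuv group of genes, which acts against vulval fates outside the vulva. Regions that many unrelated factors occupy in ChIP experiments are known from several organisms and are often called HOT regions.

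The study's table of motif matches gives the sequence of 21-, 15- and 20-base matches to motifs found in its broadly bound sites. Only part of those sites entered that search, so a region without a match says nothing. On chromosomes II, III, IV and X the table holds 323 matches, and 218 of them lie in 193 of the 780 regions. The 12 sequences below are those of the highest-ranked regions with a match among the regions named in the next paragraphs, and matches in lower-ranked named regions are not printed. They are written 5′ to 3′ on the strand given. Capitals mark GCGC in the 21-base matches, the core of the E2F type, and CGAGACC in the 15-base match. In the 20-base matches capitals mark GCGC or a run of T (TTTT or longer), and a match without these letters has none.
cdc-48.1 (21-base, - strand): agcaaccGCGCcctaacgtca
ZK550.3 (21-base, - strand): tgcaaGCGCgctccattgacg
rpl-7A (21-base, - strand): agcatgtGCGCcctgccgcac
rps-12 (21-base, + strand): ggcaaGCGCgctctatagcac
snr-6 (21-base, - strand): cgcaactgtgcgtcacggtgc
lin-9 (15-base, - strand): atcgcgtCGAGACCa
pcn-1 (20-base, - strand): TTTTTcaaccaatttgcctc
LLC1.3 (20-base, - strand): TTTTTattgagTTTTTTTTc
ZK550.3 (20-base, - strand): ctgctgGCGCacatcgcgag
rpl-7A (20-base, + strand): TTTTGCGCGCGCtgtttgaa
eif-3.B (20-base, + strand): aattccGCGCaaatctcatg
rsp-6 (20-base, + strand): gccttgttgcatgtttccac

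Of the matches shown, the 21-base match at snr-6 lacks GCGC, and the 20-base match at rsp-6 has neither GCGC nor a run of T. GCGC reads the same on both strands. It stood in 41 of the 60 21-base matches inside the 780 regions (68.3%), against 71.9% of all 96 on the chromosomes counted. CGAGACC, read on the listed strand, stood in 20 of 29 15-base matches inside the regions (69.0%), against 70.5% of all 44. Of the 129 20-base matches inside the regions, 90 held TTTT (69.8%) and 35 held GCGC (27.1%), against 68.9% and 24% of all 183. Some 20-base matches held both. These totals cover chromosomes II, III, IV and X and include the matches inside the regions, so the shares set a part against the whole. They do not show how frequent the letters were among the matches outside the regions. The study drew the table from its own class of these samples.

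Most merged regions were seen once and few were shared. A peak of only 1 library made up 14243 of the 24318 regions (58.6%). There were 158 regions at 17 libraries, 184 at 18, 155 at 19, 144 at 20, 129 at 21, 87 at 22 and 81 at all 23. The rule's limit of 18 therefore falls on a slope with no gap.

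**Figure D1:**
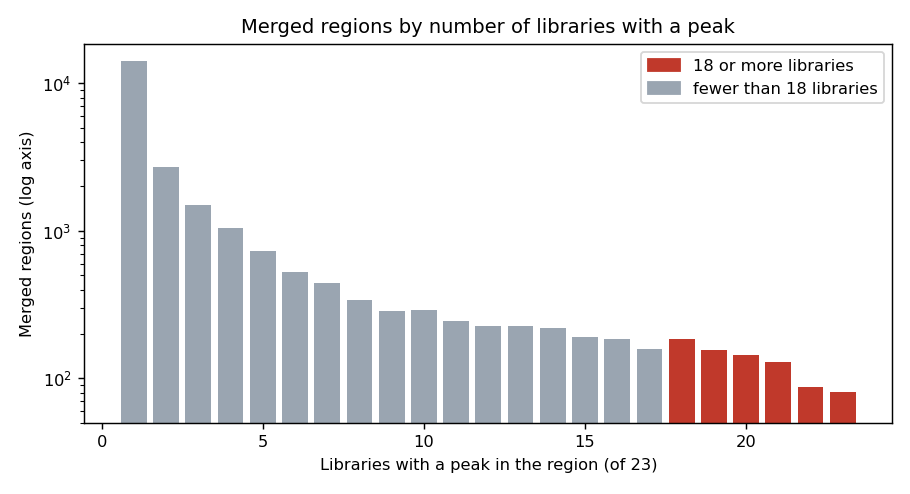
Number of merged regions (log axis, y) by the number of libraries, of 23, that had a peak in the region (x). Bars in red are the 780 regions at 18 or more libraries. The counts run from 14243 regions in 1 library to 81 in all 23 and show no step at 18.

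The 780 regions were wider than the typical merged region, and in most of them the peaks of at least 18 libraries shared bases. Their median width was 973.5 bp, with quartiles of 753.8 and 1465 bp and a range of 391 to 11618 bp. The median over all merged regions was 252 bp. They held 17412 of the 85924 deposited peaks (20.3%) in 10.9% of the merged length. In 507 regions each library had a single peak, and in 273 at least 1 library had more than 1. In 713 regions some base lay under peaks of at least 18 libraries, and in the other 67 the count of 18 was reached only through a chain of overlapping peaks. The midpoints of the libraries' strongest peaks scattered with a median SD of 59.5 bp over regions (quartiles 39.4 and 123 bp). The median midpoint of the germline libraries lay within 50 bp of that of the L1 libraries in 529 regions (67.8%).

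Peaks carry a q-value from the peak caller, and since q depends on depth, each peak was given its percentile within its own library (100 for the smallest q). Regions were ranked by the median percentile over the 23 libraries, a library without a peak counting as 0. Over the 780 regions that median had quartiles of 72.2 and 90.0, and the lowest was 28.1. It was 70.0 for the regions at 18 libraries, 82.0 at 20 and 95.2 at all 23, beside 63.1 for the regions at 17 libraries just outside the rule. Because an absent peak counts as 0, part of this order comes from the rule itself.

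The 10 highest-ranked regions with a peak in every library and a placed gene lay next to genes for ribosomes, protein turnover, DNA replication, energy metabolism and the cytoskeleton. The first was next to rpl-3, which encodes a protein of the large ribosomal subunit (III:3865565-3870429, build WS180 as in the deposited files). At rpl-3 the percentile was 99.8, 99.9 and 100 (lowest, median, highest) in the 8 germline libraries, against 94.8, 99.3 and 99.9 in the 15 L1 libraries. The second was next to cdc-48.1, an AAA ATPase that extracts ubiquitinated proteins, and a small nucleolar RNA, C06A1.9 (II:10562727-10563908). Its percentiles were 99.2, 99.8 and 99.9 in the germline libraries, against 94.3, 99.3 and 99.9 in the L1 libraries. In both regions every library thus placed the peak near the top of its list, whatever the factor or tissue.

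K01G5.9, named tasp-1 in RefSeq, followed at III:10758743-10759905 with 99.1, 99.6 and 99.9 in the germline libraries, against 93.1, 99.3 and 99.9 in the L1 libraries. At rpl-35, another gene of the large ribosomal subunit (III:7854192-7855163), the values were 99.3, 99.7 and 99.9 in the germline libraries, against 85.3, 99.0 and 99.6 in the L1 libraries. The lowest of these L1 values was that of intestinal HPL-2 replicate 2. Y54G11A.2 (II:14249334-14252076) had 97.9, 98.9 and 99.7 in the germline libraries, against 79.9, 99.2 and 100 in the L1 libraries. No base of that region lay under peaks of all 23 libraries, the most being 21, and it joined 39 peaks.

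At pcn-1, which encodes the replication clamp PCNA (IV:4049144-4050209), the percentiles were 76.3, 99.1 and 99.6 in the germline libraries, against 84.5, 98.2 and 99.9 in the L1 libraries. LLC1.3, RefSeq's dld-1, encodes dihydrolipoamide dehydrogenase of the mitochondrial dehydrogenase complexes (IV:14463471-14464722). It had 55.5, 93.0 and 97.0 in the germline libraries, against 52.3, 99.5 and 100 in the L1 libraries. The alpha-tubulin gene tba-2 (I:12966079-12967546) had 82.2, 96.1 and 99.5 in the germline libraries, against 15.4, 99.2 and 99.9 in the L1 libraries. The value of 15.4 was intestinal HPL-2 replicate 2, while HPL-2 replicates 1 and 3 had 95.8 and 93.7 there. ZK550.3 (IV:17249491-17250332) had 93.6, 97.4 and 99.3 in the germline libraries, against 91.3, 98.7 and 99.8 in the L1 libraries. Y67D8C.5, RefSeq's eel-1, a HECT ubiquitin ligase (IV:3049086-3051366), had 87.9, 98.4 and 99.2 in the germline libraries, against 74.6, 96.2 and 100 in the L1 libraries. The germline and L1 ranges overlapped at all 10 regions.

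**Figure D2:**
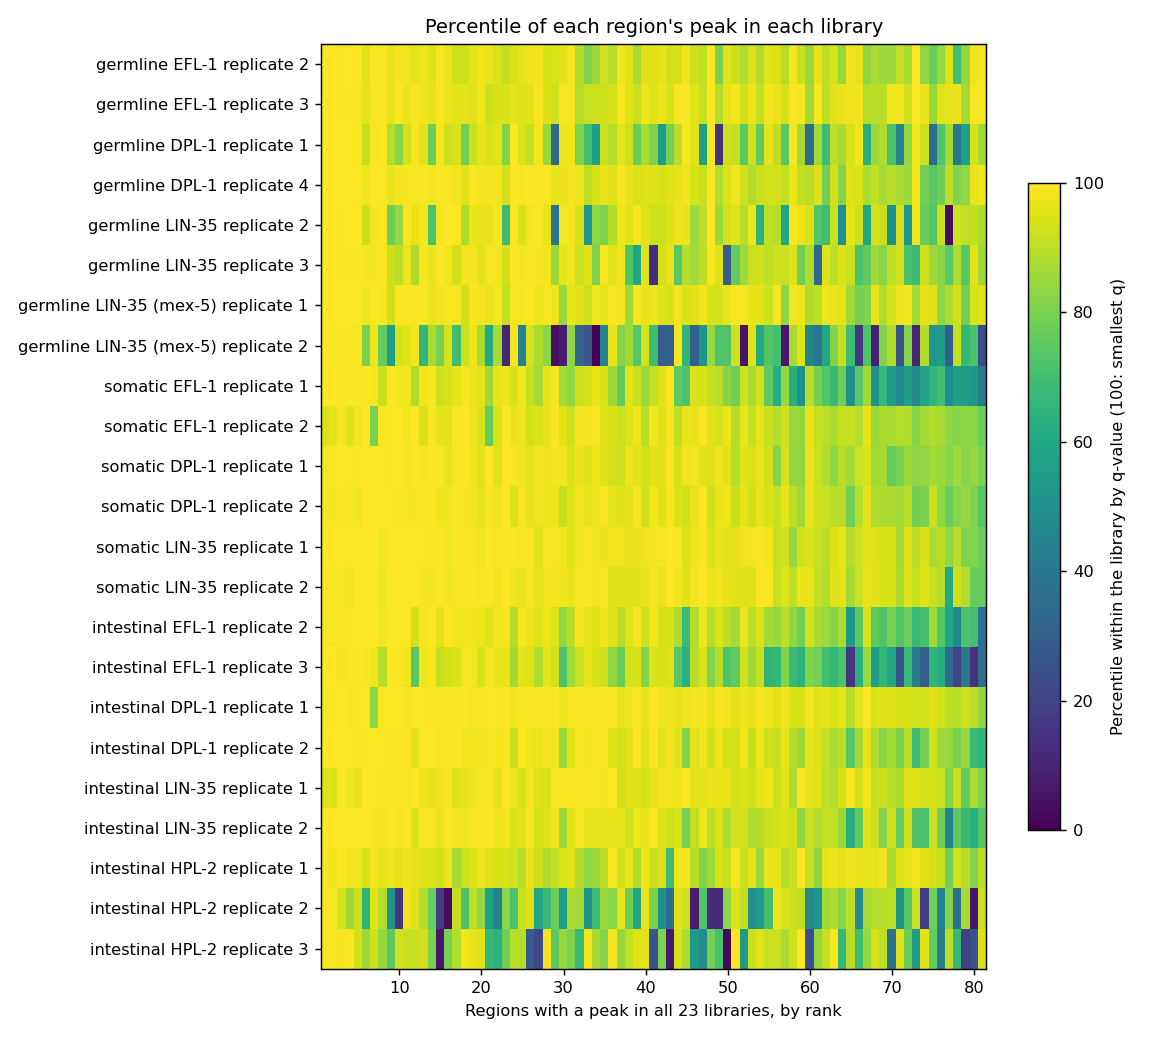
Percentile of each region's strongest peak within its library (colour, 100 for the smallest q-value) in the 81 regions with a peak in all 23 libraries. Libraries run down the page and regions run from the highest rank at the left. The median percentile falls from 99.8 to 80.8 across the regions, and single low values are most visible in germline LIN-35 (mex-5) replicate 2 and in intestinal HPL-2 replicates 2 and 3.

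The share of the 780 regions with a peak differed widely among libraries. It lay between 36.8% and 99.9% in the 8 germline libraries, between 89.9% and 100% in the 6 somatic libraries and between 51.2% and 99.9% in the 9 intestinal libraries. Over all 24318 merged regions the same share lay between 2.11% and 29.2%, the lowest in germline LIN-35 (mex-5) replicate 2 and the highest in intestinal LIN-35 replicate 1. Somatic LIN-35 replicate 2 had a peak in all 780 regions. Germline EFL-1 replicate 3, somatic DPL-1 replicate 2 and intestinal DPL-1 replicate 1 each lacked 1 region.

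Germline LIN-35 and HPL-2 were the factors most often without a peak. Germline LIN-35 replicates 2 and 3 had peaks in 483 and 389 of the regions, against 9.88% and 7.99% of all merged regions. The mex-5 strain had peaks in 675 and 287 of the regions, against 14.8% and 2.11% of all. Intestinal HPL-2 had peaks in 765, 399 and 554 of the regions in replicates 1, 2 and 3, against 27.4%, 6.46% and 18% of all. Germline EFL-1 had peaks in 759 and 779 of the regions, against 15.6% and 28.0% of all. Germline DPL-1 had peaks in 673 and 771 of the regions, against 6.7% and 12.5% of all. In these germline and HPL-2 lists the regions were thus held more often than the average merged region in each library, as the rule makes likely. In the L1 larvae somatic EFL-1 had peaks in 701 and 777 of the regions, against 6.44% and 18% of all. Somatic DPL-1 had peaks in 773 and 779 of the regions, against 16.5% and 13.4% of all, and somatic LIN-35 in 774 and 780, against 20% and 23.4% of all. Intestinal EFL-1 had peaks in 767 and 689 of the regions, against 7.9% and 5.05% of all. Intestinal DPL-1 had peaks in 779 and 777 of the regions, against 28.3% and 11% of all, and intestinal LIN-35 in 777 and 716, against 29.2% and 8.19% of all. The number of deposited peaks did not put the libraries in the same order. Intestinal EFL-1 replicate 3 held 1249 peaks and reached 88.3% of the regions, whereas germline LIN-35 replicate 2 held 2471 peaks and reached 61.9%, and HPL-2 replicate 3 held 4684 and reached 71.0%. The lists of all libraries held between 558 and 7556 peaks with q up to 0.01. Read depth was not used here.

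Leaving the library itself out of the count, though not out of the merging of peaks, gave similar shares. Among the regions with a peak in at least 18 of the other 22 libraries, the left-out library had a peak in 34.9% for germline LIN-35 (mex-5) replicate 2, 46.8% for germline LIN-35 replicate 3 and 47.4% for HPL-2 replicate 2. All the other libraries lay between 58.3% and 100%. The peaks of 1 library still stand in the same tissue groups as those that chose the regions, so these shares are also a description.

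**Figure D3:**
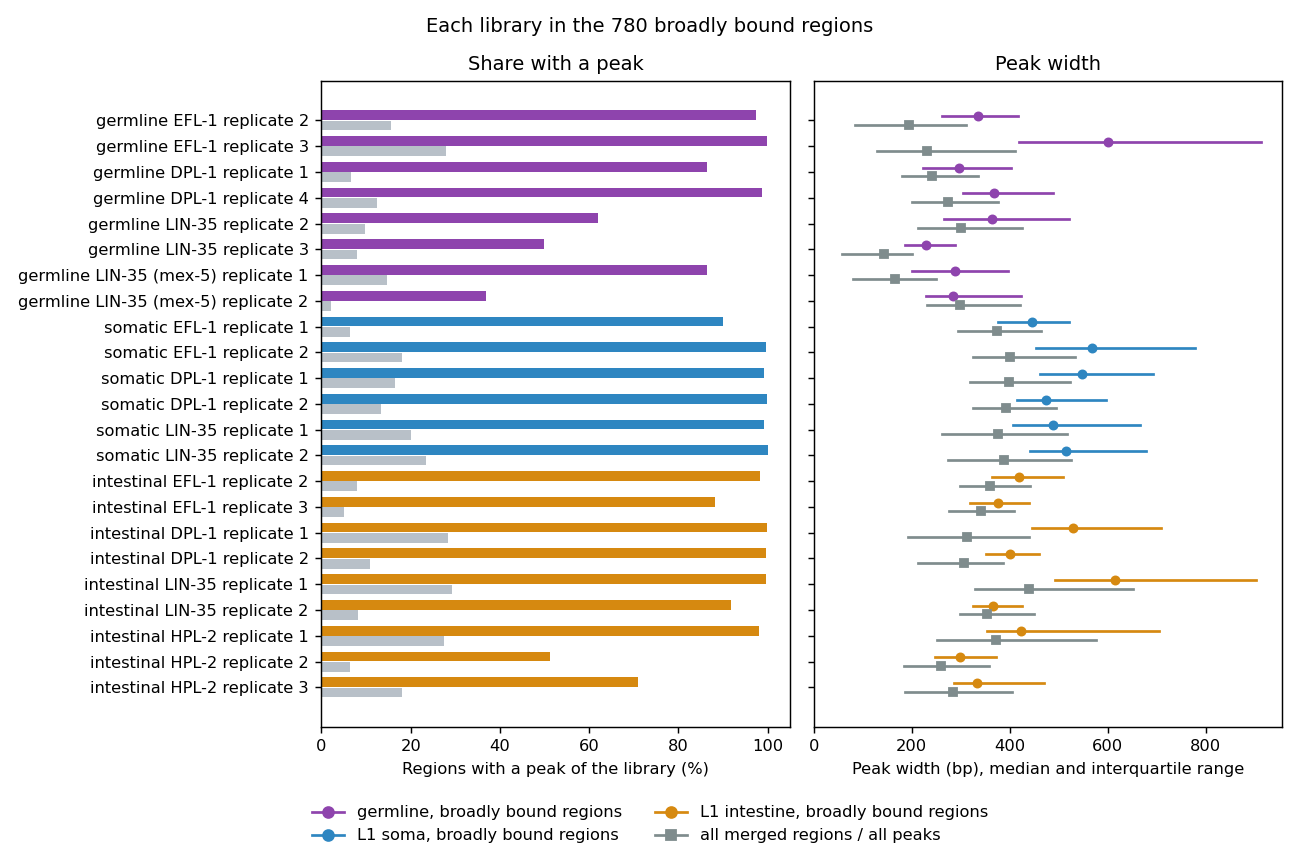
Left, the share (%) of the 780 broadly bound regions (coloured bars) and of all 24318 merged regions (grey bars) that hold a peak of each library. Right, the median peak width in bp with its interquartile range, for the strongest peak in each broadly bound region (circles) and for all peaks of the library (squares). Germline EFL-1 replicate 3 has the widest peaks of the germline libraries, with a median of 600 bp in the regions.

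A peak from every one of the 11 strains stood in 489 regions (62.7%). In 266 regions exactly 1 strain had no peak in any replicate. That strain was germline LIN-35 from the pie-1 promoter in 173 of them, the mex-5 LIN-35 strain in 72, intestinal EFL-1 in 10, HPL-2 in 8 and germline DPL-1 in 3. No region lacked all libraries of germline EFL-1, of a somatic strain, of intestinal DPL-1 or of intestinal LIN-35. The 3 highest-ranked regions of the 266 all lacked germline LIN-35. The first was next to W04A4.5, RefSeq's ints-4, a subunit of the Integrator complex that processes small nuclear RNAs (I:13663063-13663778). Its 6 germline libraries with a peak had percentiles of 46.9, 91.4 and 96.6 (lowest, median, highest), against 91.2, 98.6 and 99.9 in the 15 L1 libraries. The others were I:314428-315842, with no assigned gene, and I:11416020-11417217 next to Y53H1C.2. Both had peaks in 5 germline libraries, with 15 and 13 L1 libraries.

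Peaks in the 780 regions tended to be narrower in the germline than in L1 larvae. Width entered the rule only through the overlaps that join peaks. Per strain, the median width over the regions, averaged over the replicates on the log2 scale, was 448 bp for germline EFL-1, 330 bp for germline DPL-1, 288 bp for germline LIN-35 and 286 bp for germline LIN-35 from the mex-5 promoter. It was 502, 510 and 502 bp for somatic EFL-1, DPL-1 and LIN-35, and 397 bp for intestinal EFL-1, 461 bp for intestinal DPL-1, 473 bp for intestinal LIN-35 and 348 bp for HPL-2. The 4 germline strains thus averaged 8.38 ± 0.30 and the 7 L1 strains 8.82 ± 0.21 log2 bp (SD), or 332 and 452 bp. The groups overlapped, since germline EFL-1 was wider than intestinal EFL-1 and HPL-2. They also differ in their factors, since LIN-35 stands in both a pie-1 and a mex-5 germline strain and HPL-2 only in L1. The strain tests took no account of the factor. The difference was -0.44 on the log2 scale, with p = 0.018 in an exact two-sided permutation test over 330 splits of the strains and 0.055 after Benjamini-Hochberg adjustment over 3 comparisons, so it did not pass 0.05. It took the opposite sign, 0.23 (adjusted p = 0.31, exact permutation), once the median width of all peaks of the same library was subtracted. Relative to their own lists, the germline peaks in the regions were thus not shown to be narrower. The difference was -0.33 without germline EFL-1 replicate 2 (adjusted p = 0.24, exact permutation). Without germline EFL-1 replicate 3 it was -0.56 (adjusted p = 0.0091, exact permutation), and it also passed without germline DPL-1 replicate 4, germline LIN-35 replicate 2, intestinal EFL-1 replicate 3 or HPL-2 replicate 2.

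**Figure D4:**
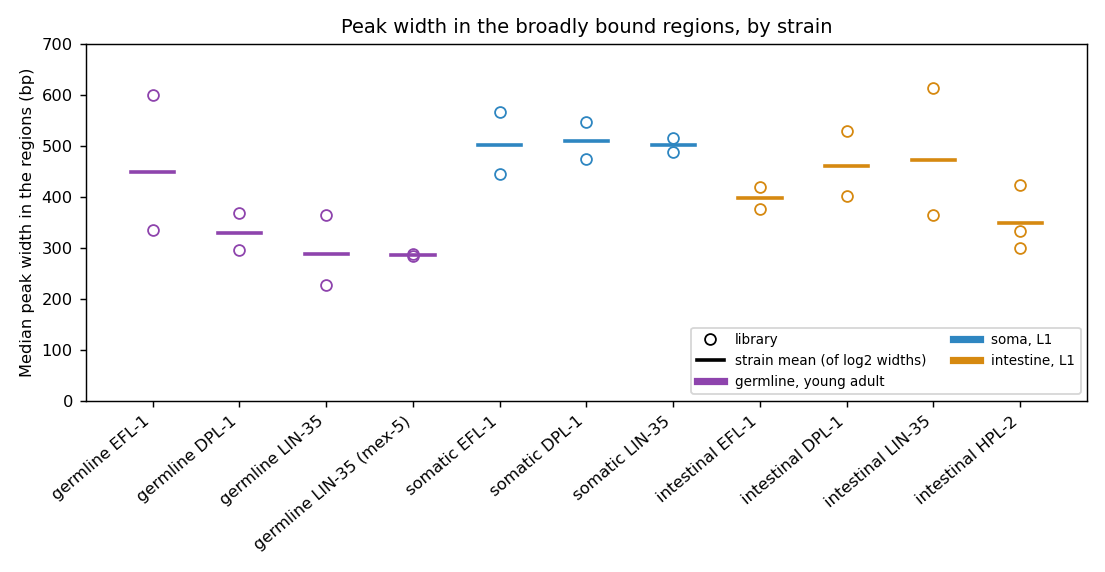
Median peak width in the 780 regions in bp (y) for each library (open circles) and the mean of each strain taken on the log2 scale (bars), by strain (x) and coloured by tissue and stage. The somatic strains lie at 502 to 510 bp, above the 4 intestinal strains at 348 to 473 bp, and 3 of the germline strains lie at 330 bp or below.

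The rank of the peaks within their lists was compared in the same way. The 4 germline strains averaged a median percentile of 79.5 ± 6.39, against 83.4 ± 7.22 in the 7 L1 strains (SD), a difference of -3.93 with p = 0.39 in the same exact permutation test (adjusted p = 0.39). The germline strains ranged between 72.24 for the mex-5 strain and 86.49 for EFL-1, and the L1 strains between 71.34 for intestinal EFL-1 and 91.49 for somatic LIN-35. The difference was -0.74 without mex-5 LIN-35 replicate 2, -7.18 without mex-5 LIN-35 replicate 1 and -2.42 without germline DPL-1 replicate 1. With peaks of q below 0.001 it was -11.67, and with q below 1e-05 it was -16.38 (p = 0.042, adjusted p = 0.13, exact permutation), so its size varied with the libraries and the q limit used. These percentiles leave out the regions without a peak. With an absent peak counted as 0, the mean percentile was higher in the germline than in the L1 libraries in 160 of the 780 regions (20.5%). It was lower in 620, with a median difference of -16.5 over the regions. These counts mix missing peaks with rank, and the rule does not treat the groups alike. The fewest libraries with a peak in any of the 780 regions were 3 of the 8 germline and 10 of the 15 L1 libraries. The rule thus leaves more room for a lower germline mean than for a lower L1 mean, here and in the gene lists below. How much of the difference comes from the rule was not tested. The median number of libraries with a peak was 6 of the 8 germline and 14 of the 15 L1 libraries. Absent peaks were most frequent in the germline LIN-35 and HPL-2 lists. Their part in the difference was not tested. Between the L1 groups, the somatic strains had wider peaks than the intestinal strains, 8.98 ± 0.01 (n = 3) against 8.70 ± 0.21 (n = 4) log2 bp. No intestinal strain reached the somatic range. That difference of 0.28 had p = 0.086 by the exact permutation test (adjusted p = 0.13), where 35 splits allow no p below 0.029. It was 0.07 (adjusted p = 0.6, exact permutation) once the median width of all peaks of the same library was subtracted. HPL-2, the narrowest of these strains at 348 bp, stands only in the intestinal group, and the test took no account of the factor.

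The regions were spread unevenly over the chromosomes. Chromosome III held 201 (25.8%), II 167 (21.4%), IV 162 (20.8%), V 143 (18.3%) and I 80 (10.3%). The X chromosome held 27 regions, or 3.46% (Wilson 95% interval 2.39 to 4.99%, counting error only), although 18.9% of all merged regions lay on X. Put the other way, 0.588% of the merged regions on X reached 18 libraries, against 5.75% on chromosome III, 4.35% on II, 3.46% on IV, 2.9% on V and 2.87% on I. The share on X was 10.8% among the regions at 17 libraries, 7.61% at 18, 2.08% at 20 and 1.15% at 22, and no X region had a peak in all 23 libraries. The X share moves with the limit: it was 1.36% at 20 libraries or more, and between 1.99 and 2.29% when 18 of 22 libraries were asked for and 1 of 15 libraries was left out. These 15 are all but germline EFL-1 replicate 2, both germline DPL-1 libraries, both pie-1 LIN-35 libraries, mex-5 LIN-35 replicate 2, somatic EFL-1 replicate 1 and intestinal EFL-1 replicate 3.

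Among the X regions the highest-ranked one with a gene lay next to puf-9, which encodes a Pumilio-family RNA-binding protein (X:5840449-5841618, 20 libraries). Next came klp-13, of the kinesin family (X:5983769-5985916, 20 libraries). A lower-ranked X region lay next to bet-2, a bromodomain protein gene (X:10567882-10569304, 20 libraries). At puf-9 the 5 germline libraries with a peak had 15.7, 35.2, 68.1, 72.6 and 79.7, against a range of 51.0 to 99.1 in the 15 L1 libraries. Both germline LIN-35 libraries and germline DPL-1 replicate 1 had no peak there, while the 3 HPL-2 libraries had 99.1, 96.6 and 96.5. A tRNA gene lay next to 6 of the 27 X regions, for example M02F4.t1 and M02F4.t2 (X:3035629-3036421), which had peaks in all 8 germline libraries and 13 L1 libraries. X:1855967-1856835 lay next to ceh-39, a homeobox gene whose dose on X is one of the signals of sex determination.

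The 3 widest regions joined 73, 65 and 50 peaks. The widest, II:10541819-10553436, next to pro-1, spanned 11618 bp and had a peak of 21 libraries. X:6735287-6746059 spanned 10773 bp with 19 libraries, and at most 18 of them covered the same base. X:4140681-4149303 spanned 8623 bp with 19 libraries, and no base lay under peaks of more than 14. At X:6735287-6746059 the median peak width was 374 bp in the 4 germline libraries with a peak, against 2577 bp in the 15 L1 libraries, so the L1 peaks there were broad. In all, 50 regions (6.41%) exceeded 3000 bp.

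Genes were placed with the study's table of site assignments, which lists sites that the study put in a class on these samples and so is no independent evidence. Its sites match peaks in position except on chromosome V. There the median offset between sites and peaks was 168.75 bp, so the 143 regions there were left without a gene. Of the other 637 regions, 563 (88.4%) had a gene, 31 lay at a listed site without one and 43 at no listed site. They were next to 853 of the 2405 genes placed at any merged region, so 35.5% is the background for the gene lists below.

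The cores of the regions lay close to transcript starts. The distance between the centre of the bases shared by most libraries and the nearest placed start had a median of 170 bp (quartiles 84.2 and 278 bp) over the 563 regions, against 192 bp (78.5 and 438 bp) over 1234 placed regions with fewer than 18 libraries. It was at most 500 bp in 504 of the 563 (89.5%, Wilson 95% interval 86.7 to 91.8%), against 958 of 1234 other placed regions (77.6%, 75.2 to 79.9%). The share over all placed regions was 81.4%. The study's assignment itself searched up to 2000 bp from a start, which bounds these distances. Regions between genes read in opposite directions were frequent. At least 2 genes stood next to 249 of the 563 regions (44.2%), against 339 of 1234 others (27.5%), and a pair of divergent starts within 2000 bp of each other stood at 211 (37.5%), against 264 others (21.4%). Genes were attached through any listed site that overlaps the region, and a wider region can overlap more sites. The 780 regions had a median width of 973.5 bp, against 252 bp over all merged regions. The part of width in the shares of this paragraph was not tested.

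**Figure D5:**
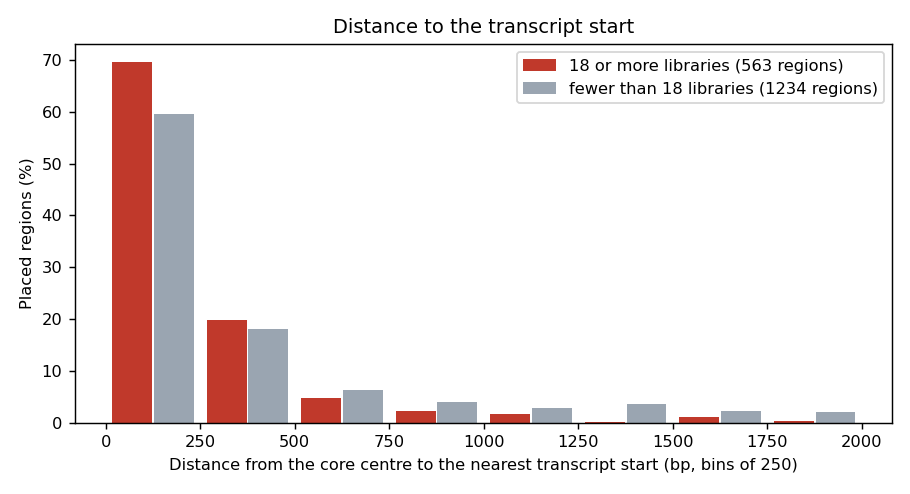
Share (%, y) of placed regions by the distance in bp from the centre of the region's core to the nearest transcript start (x, bins of 250 bp). Red bars are the 563 regions at 18 or more libraries and grey bars the 1234 placed regions at fewer. The first bin holds 69.6% of the regions at 18 or more libraries and 59.6% of those at fewer.

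Ribosomal protein genes gave the highest count among the coding lists. Of 63 placed ribosomal protein genes, 40 lay next to one of the 780 regions (63.5%, background 35.5%), at 38 regions of which 12 had a peak in all 23 libraries. Over these 38 the median percentile ranged from 60.4 to 99.8, with a median of 82.9 beside 82.2 over all 780. After rpl-3 and rpl-35 came rpl-7A, rps-22 (RefSeq's rps-15A), rps-12, rpl-24.2 (RefSeq's rsl-24D1), rpl-12 and rpl-15. The list follows the study's gene names, and rpl-24.2 is counted by that name only. The rpl-7A region (IV:4388860-4391112), which also holds a snoRNA gene and carries the 21- and 20-base matches shown above, had percentiles of 87.2, 97.3 and 98.4 in the germline libraries, against 83.6, 97.3 and 99.2 in the L1 libraries. The rps-12 region (III:5678707-5680443) had 87.7, 95.2 and 97.3 in the germline libraries, against 81.4, 95.7 and 97.7 in the L1 libraries. The ranges overlapped in both. The region between rpl-12 and lin-54, IV:13238935-13241156, joins a ribosomal gene with the DNA-binding subunit of the DRM complex. The mean percentile was higher in germline than in L1 libraries in 17 of the 38 regions, beside 20.5% of all 780. On X the list was represented by rpl-11.2 (X:2242715-2243354), with 4 germline and 15 L1 libraries.

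Of 17 placed DNA replication genes 10 were there (58.8%), and of 43 placed genes for mitosis, centromere and spindle 28 (65.1%). The 8 highest-ranked replication genes were pcn-1, pri-2 of the primase, the fork protein gene tim-1, the clamp loader gene rfc-4, the helicase genes mcm-2, mcm-4 and mcm-5, and rnr-1 of ribonucleotide reductase. At mcm-2 (II:12006314-12007130) the percentile was 73.9, 98.5 and 99.8 in the 8 germline libraries, against 10.2, 86.8 and 93.8 in 14 L1 libraries with a peak. At rnr-1 (III:9227997-9229130) it was 74.2, 93.5 and 99.0 in 5 germline libraries, against 11.8, 85.3 and 96.4 in 14 L1 libraries. Over the 10 replication regions the mean percentile was higher in germline than in L1 libraries in 6.

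The mitosis list was led by klp-18, a kinesin of the acentrosomal oocyte spindle (IV:7039321-7040325), with 84.7, 99.2 and 100 in the germline libraries, against 12.6, 93.3 and 97.0 in the L1 libraries. It went on with the kinetochore gene kbp-4, csc-1 of the chromosomal passenger complex, the checkpoint gene mdf-2, the securin gene ify-1, the spindle positioning gene lin-5, the separase gene sep-1 and hcp-3, the centromeric histone H3. At hcp-3 (III:9614898-9617385) the 8 germline libraries had 92.0, 99.3 and 100, against 23.8, 82.0 and 92.4 in 13 L1 libraries, so nearly all germline values lay above the L1 values. No more than 17 libraries shared a base there, so hcp-3 belongs to the 67 regions that reach 18 through a chain. At sep-1 (I:3438507-3439497) only 4 germline libraries had a peak, with 63.7, 81.7 and 95.5, against 8.85, 91.9 and 98.6 in 14 L1 libraries. A higher germline mean stood in 11 of the 28 regions.

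Of 12 placed genes on a list of cell cycle kinases, cyclins and other cell cycle regulators 7 lay next to a region (58.3%). None of these regions had a peak in all 23 libraries. The inhibitory kinase gene wee-1.3 (II:9716329-9717172, 22 libraries) had 39.5, 95.5 and 97.0 in the germline libraries, against 11.6, 98.8 and 99.8 in the L1 libraries with a peak. The others were the cyclin B gene cyb-1, emb-30 of the anaphase-promoting complex, cdk-1, lin-23 of an SCF ubiquitin ligase, the CDK inhibitor gene cki-2 and the phosphatase gene cdc-14. The median percentile over libraries was 97.9 at wee-1.3, 95.8 at cyb-1 and 37.2 at cdc-14, so the list held high- and low-ranked regions. A higher germline mean stood in 2 of the 7 regions.

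Chromatin genes of the SynMuv group and its partners had 12 of 20 placed members next to a region (60.0%). They included mes-2 and mes-6 of the worm's Polycomb-like complex, the nucleosome remodeller gene isw-1, lin-9, lin-54 and lin-53, whose products are DRM subunits, mrg-1, a chromodomain protein gene, and the SUMO-conjugating enzyme gene ubc-9. At lin-9 (III:8903724-8904693, 23 libraries), where the 15-base match lies, the percentile was 81.5, 97.7 and 99.2 in the germline libraries, against 76.1, 93.0 and 97.9 in the L1 libraries. At mes-2 (II:14383490-14384036, 22 libraries) it was 77.8, 92.4 and 97.5 in 7 germline libraries, against 42.6, 98.1 and 99.5 in the L1 libraries. The germline and L1 ranges overlapped in both. A higher germline mean stood in 4 of the 12 regions, beside 20.5% of all 780. None of the 5 placed loci whose sequences the transgenes carry lay next to one of the 780 regions.

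Of 18 placed splicing genes 10 lay next to a region (55.6%), among them the SR protein genes rsp-6, rsp-3, rsp-2 and rsp-5, the Sm protein genes snr-6 and snr-2, the helicase gene mog-4 and prp-8. None of their 9 regions had a higher germline mean. At rsp-6 (IV:7789343-7792411) the percentile was 7.62, 96.9 and 98.8 in the germline libraries, against 55.6, 91.0 and 98.7 in the L1 libraries, so 1 low germline library widened the range. Of 16 placed translation factor genes 6 were there (37.5%, close to the background of 35.5%), namely the elongation factor genes eef-2 and eef-1A.1, the initiation factor genes eif-3.B and eif-3.C, and iff-1 and iff-2 for eIF5A. The region of eif-3.B (II:14794723-14795451) had 11.6, 90.8 and 94.3 in the germline libraries, against 77.8, 99.0 and 99.9 in the L1 libraries. Of 22 placed genes on a list of proteasome and ubiquitin pathway genes 10 were there (45.5%), led by cdc-48.1 and followed by rpn-11, pbs-1, rpn-3, pas-5, rpn-5, let-70 and rpn-9. A higher germline mean stood in 2 of the 6 translation factor regions and in 3 of the 10 proteasome and ubiquitin regions. At pas-5 (I:10564639-10566538) 5 germline libraries had a peak, against all 15 L1 libraries.

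Of 212 placed noncoding RNA genes 54 lay next to a region (25.5%, beside 35.5% of all placed genes). For snoRNA genes it was 26 of 55 (47.3%), for snRNA genes 6 of 15 (40%), for miRNA genes 7 of 30 (23.3%) and for tRNA genes 15 of 112 (13.4%). Of 55 placed tRNA genes on X 8 lay next to a region. A higher germline mean stood in 20 of the 47 regions of the noncoding list. Several of the highest-ranked snoRNA genes share a region with a coding gene on these lists, such as C06A1.9 with cdc-48.1, Y24D9A.9 with rpl-7A, F54E7.10 and F54E7.11 with rps-12, and K11H12.12 and K11H12.13 with rpl-15. Another, C07H6.10, stood beside cgh-1, a germline RNA helicase gene (III:7494759-7498976), and snRNA Y75B8A.38 beside tim-1. Which gene of such a region a peak belongs to cannot be told apart.

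Of 20 placed genes of oogenesis and eggshell 2 lay next to a region (10.0%), mex-1, a maternal CCCH zinc finger gene (II:11966448-11969071), and the C-type lectin gene clec-87 (I:10184080-10186297). Each shares its region with a divergent neighbour, W03C9.5 and rsa-1. At mex-1 the percentile was 10.3, 97.9 and 99.8 in the 8 germline libraries, against 42.0, 81.3 and 97.9 in the L1 libraries. None of the 8 placed genes of intestinal metabolism and yolk lay next to a region. The study's intestine-specific class left out sites of somatic or intestinal EFL-1, and its germline-specific class left out sites of somatic DPL-1. By that definition, genes placed through these classes are less likely to stand next to a broadly bound region. The class behind each gene was not used here, so the low shares of these lists are a description only.

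At the limit itself, the highest-ranked regions with exactly 18 libraries were those next to Y53H1C.2 (median percentile 93.9), F56D1.3 and F56D1.2 (II:5473522-5475033, 93.8) and W02B8.2 (II:13908402-13909043, 92.8). Each had 5 germline and 13 L1 libraries. The highest-ranked with 17 libraries, just outside, were those next to T12F5.1 and larp-2 (I:3740181-3741738, 88.5, with 5 germline and 12 L1 libraries), T26E3.4 (I:12664451-12665341, 87.4, with 4 and 13) and T24B8.2 (II:9054267-9054989, 85.5, with 4 and 13). All 3 of these regions at 17 libraries lacked both pie-1 LIN-35 libraries, mex-5 LIN-35 replicate 2 and HPL-2 replicates 2 and 3.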

How the data were processed

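For every library the authors sequenced anti-GFP precipitates and ran PeakSeq with input DNA as the control. The deposited lists give the start, the end and a q-value for each peak on build WS180, per the file headers. In 3 libraries 2 runs were combined by the authors. Which aligner was used was not given in the sources used here. Input libraries come without a peak list and were not analysed here, and none is listed for HPL-2 replicate 3. Peaks were merged at 1 bp of overlap in Python 3.11.15 with pandas 2.3.3, and regions with at least 18 of 23 libraries were kept. Per region and library the peak with the smallest q-value was used. Its percentile in its own library stands in for q, since depth differs. Strains were compared by exact permutation tests with Benjamini-Hochberg adjustment over 3 comparisons, so p-values measure the spread between these strains, and shares have 95% Wilson intervals. Merging gave the same number of regions as bedtools 2.31.1 and was tested on simulated data. Gene names come from the study's site table, and RefSeq (WBcel235) matched 821 of 850 sequence names, for names only. Named regions follow a rule on rank: the 10 highest with a peak in every library and a placed gene, up to 8 genes a list, the 3 highest lacking 1 strain, the 3 widest, and the 3 highest at 18 and at 17 libraries. The X regions, hcp-3's chain and examples beyond that rule were chosen after their values were seen. Members, lists and tests were chosen with earlier results of these data known. Alternative settings were the q limit, the number of libraries, the overlap, equal list lengths, left-out libraries, the unit of the test and a replicate block. Promoter sequences were not used here, so the share of promoters with an E2F-type site was not computed.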

Additional observations from a re-analysis of the deposited data

Results flagged for a closer look

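In 19 groups of 4 to 10 libraries or strains, 4 values stood apart from the rest of their group by the gap to the nearest other value over the group's range, and chance flags about 1 in 20 groups. Germline EFL-1 replicate 3 had a median peak width of 600 bp in the regions, the largest of the 8 germline libraries. Somatic EFL-1 replicate 1 stood apart from the other somatic libraries in 3 measures: it had a peak in 701 of the 780 regions, 45.5% of its own peaks lay in them, and its median percentile there was 73.1. It also holds the shortest list of the 6 somatic libraries, with 1588 peaks, and the part of list length in these values was not tested.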

How the results depend on the processing

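The number of regions was 441 at 20 libraries or more, 81 at all 23, 476 with peaks of q below 0.001, 221 with q below 1e-05 and 149 with the 558 smallest q-values of every library. It lay between 588 and 757 with a library left out, and was 938 at 17 libraries, 765 with an overlap of 10 bp and 730 as stretches covered by 18 libraries. Under the same first 5 settings the share on X was 1.36, 0, 1.68, 0.905 and 0%, and with a library left out it lay between 1.99 and 3.76%. The share with a start within 500 bp was 95.2% at all 23 libraries, 93.4% with q below 1e-05 and 94.5% with equal lists, and 99.8% within 2000 bp. It lay between 88.4 and 90.2% with a library left out.

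The width difference between germline and L1 was -0.45 at 17 libraries (adjusted p = 0.045, exact permutation) and -0.42 with the library as the unit (adjusted p = 0.033, exact permutation). It was 0.23 relative to all peaks of the library, and lay between -0.56 and -0.33 with a library left out (adjusted p between 0.0091 and 0.24, exact permutation). The other alternatives gave adjusted p between 0.055 and 0.25 by the exact permutation test, all with the same sign. The percentile difference and the width difference between soma and intestine kept their sign and stayed above 0.05 under all 35 alternatives each, between -16.38 and -0.74 and between 0.07 and 0.38. Whether replicate numbers mark pairs was not settled. Of 79 pairs of same-numbered libraries from different strains, 23 deviated together with a correlation over 0.1 (median 0.03). Of 161 pairs with different numbers 28 did (median -0.02). Closest to one of their own number were 10 of 23 libraries. In a strain with 2 libraries the deviations from the strain mean mirror each other, so this check cannot decide. With the replicate number as a block the width difference was -0.42 (adjusted p = 0.075, exact permutation), the percentile difference -3.42 and the difference between soma and intestine 0.23, which changed no call. The share of promoters with an E2F-type site was not run. The causes of these shifts were not tested. Peak lists limit all counts, since a peak just above the q limit is absent from a list, and read depth behind each list was not used here.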
